A study of Drosophila melanogaster with 2 samples.

Results

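CG12299 protein was mapped by chromatin immunoprecipitation and sequencing (ChIP-seq) in Drosophila melanogaster embryos, and 635 of its 3672 peaks (17.3%) had their summit just downstream of a gene start. A peak was counted here when its summit, the point of highest signal, lay at most 500 bp from a transcription start site (TSS) of the annotation and at or past the nearest TSS in the direction of its transcript. Transposable elements were not used as starts. Summits between head-to-head starts at most 1000 bp apart, which lie upstream of both starts, formed a class of their own. The other thresholded peaks were 894 upstream of a single start, 646 between head-to-head starts and 1497 more than 500 bp from any TSS.

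The material was a single group, whole embryos aged 0 to 24 h of a transgenic line that makes CG12299 with GFP at its C terminus, in 2 biological replicates. Chromatin was sheared by sonication (size range 200 to 800 bp, per the labels) and precipitated through the GFP tag. The labels do not say whether the untagged gene was still present or how the tagged copy was controlled, and no condition other than the tagged line was compared. Peaks were called against 1 control, which was not analysed here. The authors deposited a list for each replicate, a list called on both replicates together (pooled), and the part of that pooled list that passed their reproducibility threshold (thresholded). The lists hold the authors' peak score, called signalValue, and no read counts. Depth is thus unknown, and a score is compared only within its own list. The cell types of whole embryos are mixed, so binding in fewer cells and weaker binding per cell cannot be told apart in any score.

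The start of a transcript is where RNA polymerase II is loaded and, in many fly genes, pauses shortly after it has begun. The sequence around it, the core promoter, holds short elements such as the TATA box ahead of the start, the initiator across it, and the TCT element, a pyrimidine-rich initiator of ribosomal protein genes. The sequence just past the start is mostly the 5' untranslated region (5' UTR) and the first intron, and coding sequence begins farther on.

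The sequences at the summits of 10 strong peaks are given as examples of what lies there. They are read 5' to 3' on the strand of the nearest gene, and capitals mark runs of at least 6 bases made of A and T alone. Windows of 61 bases are those of the 6 strongest peaks whose window holds no annotated UTR, which takes in scramb2 from outside the 20 strongest, and 29 bases are shown for 4 others. They come from the release 6 assembly (dm6).
CG11309, intron, chr3L:21304542-21304602, minus strand: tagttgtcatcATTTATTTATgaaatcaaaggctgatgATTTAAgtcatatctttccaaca
CG9147, 5' UTR, chr2L:6066086-6066114, plus strand: tgcagtagttcAAAAATTAAgttaacaat
Chro, 5' UTR, chr3L:22878896-22878924, minus strand: atttactggactgcagttagTTTAAAgct
ph-p, 5' UTR, chrX:2137898-2137926, minus strand: attcTATTTTActaaacgttttcATTTTA
lncRNA:CR31840, non-coding exon, chr2L:14024046-14024106, minus strand: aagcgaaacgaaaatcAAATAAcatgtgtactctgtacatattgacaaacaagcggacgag
mRpL23, 5' UTR, chr3L:2373602-2373630, minus strand: gtggtaaaagtgtggAATATTTTATAgtt
lncRNA:CR44149, non-coding exon, chr2L:9568717-9568777, minus strand: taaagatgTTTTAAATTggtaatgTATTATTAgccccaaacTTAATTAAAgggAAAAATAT
lncRNA:CR44619, non-coding exon, chrX:12752331-12752391, plus strand: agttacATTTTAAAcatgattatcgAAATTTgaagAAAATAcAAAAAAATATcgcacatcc
lncRNA:CR44676, non-coding exon, chr3L:19560810-19560870, minus strand: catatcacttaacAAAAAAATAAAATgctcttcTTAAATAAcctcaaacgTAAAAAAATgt
scramb2, intron, chr3L:3046396-3046456, minus strand: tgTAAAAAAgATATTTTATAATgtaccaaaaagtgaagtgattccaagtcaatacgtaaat
These 10 windows all hold such a run, and not all peaks do. A run of this length lay in the 61 bases around the summit at 71.7% of the 635 downstream peaks, 84.7% of upstream peaks and 58.7% of remaining downstream peaks. In the 29 bases around it, 47.9% of downstream peaks, 62.4% of upstream peaks and 35.5% of remaining downstream peaks held one. The window at lncRNA:CR31840 has 37.7% G and C and 6 bases in capitals, and that at lncRNA:CR44149 has 22.95% and 34 bases in capitals.

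The strongest peak past a start lay 86 bp downstream of the TSS of CG11309, with CG7632 within 50 bp. Its signalValue was 1305 in the thresholded list, 656.4 in replicate 1 and 644.8 in replicate 2, which made it the 16th and 20th strongest peak of the replicates' lists. CG9147 followed, with a summit 13 bp past its start and a signalValue of 1223. The files give neither gene a further name.

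Chro, which encodes the chromodomain protein Chromator of chromosome interbands, had a peak of 1122 at 74 bp, with 577.9 in replicate 1 and 537.4 in replicate 2. The peak at ph-p, which encodes Polyhomeotic proximal, a subunit of Polycomb repressive complex 1, reached 1111 and was the only one of the 5 strongest farther than 100 bp from the start, at 459 bp. Its summits in the replicates lay 454 and 473 bp past the same TSS. A further peak of the Polycomb group lay 91 bp into E(z), the histone H3 lysine 27 methyltransferase, in its first intron, at 541.1 (295.2 in replicate 1 and 247.3 in replicate 2), with Cnep1r2 within 50 bp. These peaks ranked high in both replicates.

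Long non-coding RNA genes held 4 of the 20 strongest peaks and an antisense RNA gene 1. The antisense RNA gene, asRNA:CR45928, lies within 50 bp of the start of eIF6, a factor of large ribosomal subunit assembly, and its peak reached 819.9. At lncRNA:CR44619 and lncRNA:CR44676 the summit lay deep in the transcript, at 494 and 350 bp. The remaining genes among the 20 strongest had signalValues from 509.3 to 707.3. They were mRpL23, a protein of the mitochondrial large ribosomal subunit (62 bp past its start, with CG9004 beside it), GstE13, a glutathione S-transferase (61 bp), Elp5, a subunit of the Elongator complex (60 bp, with CG1275), CG8320 (77 bp, with Pex11ab, a peroxisome factor), and Pyroxd1 (3 bp), with CG10413, CG8360, CG1227, CG5335 and tank.

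**Figure D1:**
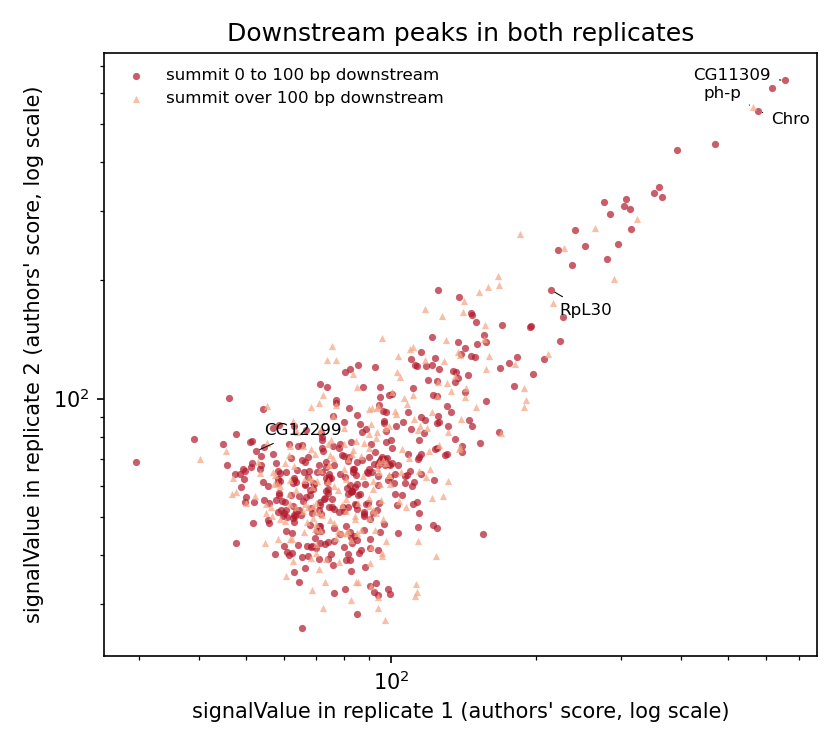
Score of each of the 635 downstream peaks in replicate 1 (x axis) and replicate 2 (y axis), the authors' signalValue on log scales, with circles for summits 0 to 100 bp and triangles for summits more than 100 bp past the TSS. The strongest peaks lie near the diagonal, from RpL30 at 214.9 and 188.8 up to CG11309 at 656.4 and 644.8, and the weaker ones form a cloud that holds CG12299 itself.

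Across the 635 peaks, signalValue in the thresholded list had a median of 142.8 and ran from 107.0 to 1305. In replicate 1 it ran from 29.67 to 656.4 with a median of 84.8, and in replicate 2 from 26.03 to 644.8 with a median of 65.3. Spearman's rho between the replicates was 0.521 across these peaks, which were selected partly on both replicates and are not independent samples. Of the 635, 551 (86.8%) were among the 3672 strongest peaks of replicate 1, 498 (78.4%) among those of replicate 2, and 430 (67.7%) among both. For upstream peaks the share among both was 76.4%. The weakest peaks lay at Synj, CG14968, ctrip with Hus1-like, RhoL and Kdm2, with signalValues of 107.0 to 107.2. The strongest remaining downstream peaks, at Trf4-1 and XNP, had 106.8 and 106.3, just under the threshold.

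Which side of the start a summit fell on varied between the replicates. In both replicates' own lists the matching summit was also downstream of the same TSS for 511 of the 635 peaks (80.5%), while upstream peaks kept their side in both for 839 of 894 (93.9%). Of the 114 downstream summits 0 to 25 bp from the TSS, 51 (44.7%) kept their side in both replicates, against 37 of 63 upstream summits (58.7%) at that distance. Beyond 100 bp, 226 of 238 downstream summits (94.96%) and 640 of 650 upstream summits (98.5%) did. Summits 0 to 25 bp from the TSS made up 114 of the 635 downstream peaks and 63 of the 894 upstream peaks. The summits of the replicates lay a median of 34 bp apart. Dref, which encodes the factor that binds the DNA replication-related element, shows the unstable kind, with a summit at 7 bp in the thresholded list and at -32 and -27 bp, ahead of the start, in the replicates. At eIF3c, a subunit of translation initiation factor 3, the summit lay at 5 bp in the thresholded list and at -154 and -118 bp in the replicates.

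The peaks were concentrated close to the start. Their median distance was 72 bp (quartiles 35.5 and 156.5), and 397 of 635 (62.5%) lay within 100 bp. For the 3569 remaining downstream peaks, which are the pooled downstream peaks that overlap no thresholded one and all score lower, the median was 128 bp. The peak interval covered the TSS itself for 498 (78.4%). Of the 635 intervals, 589 (92.8%) had the same full width of 384 bp, so this coverage follows largely from the summit's distance. Where the distance limit fell, lncRNA:CR43411 and Fbl6 at 500 bp were inside it with 236 and 246.8, and aru at 504 bp and lncRNA:CR42736 at 505 bp were outside it with 426.2 and 108.1. Of the nearest genes, 584 (92.0%) were protein-coding.

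Pooled peaks just past a start passed the threshold less often than those ahead of one, but not within 100 bp of it. In the thresholded list were 635 of 4448 pooled downstream peaks (14.3%) and 894 of 4280 pooled upstream peaks (20.9%), an odds ratio of 0.631 (95% interval 0.564 to 0.705, Fisher's exact test, two-sided, p = 4.33e-16). Among peaks between head-to-head starts the share was 39.0%, and among those more than 500 bp from a TSS it was 7.63%. Over 100 bp from the TSS the shares were 9.84% downstream and 22.6% upstream (odds ratio 0.375, exact p = 2.86e-36). At most 100 bp from the TSS they were 19.6% downstream and 17.4% upstream (odds ratio 1.15, exact p = 0.119), with no difference called. Here and in the other contrasts with upstream peaks, the near and far odds ratios were not tested against each other. In steps of 50 bp, the share was 19.4% at 0 to 49 bp past the start, 19.98% at 50 to 99 bp and 7.05% at 200 to 249 bp. Upstream it was 15.2% at -50 to -1 bp, 20.1% at -100 to -51 bp and highest at -200 to -151 bp, at 28.8%. Peaks are the units of these tests, and neighbouring peaks come from the same 2 replicates.

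**Figure D2:**
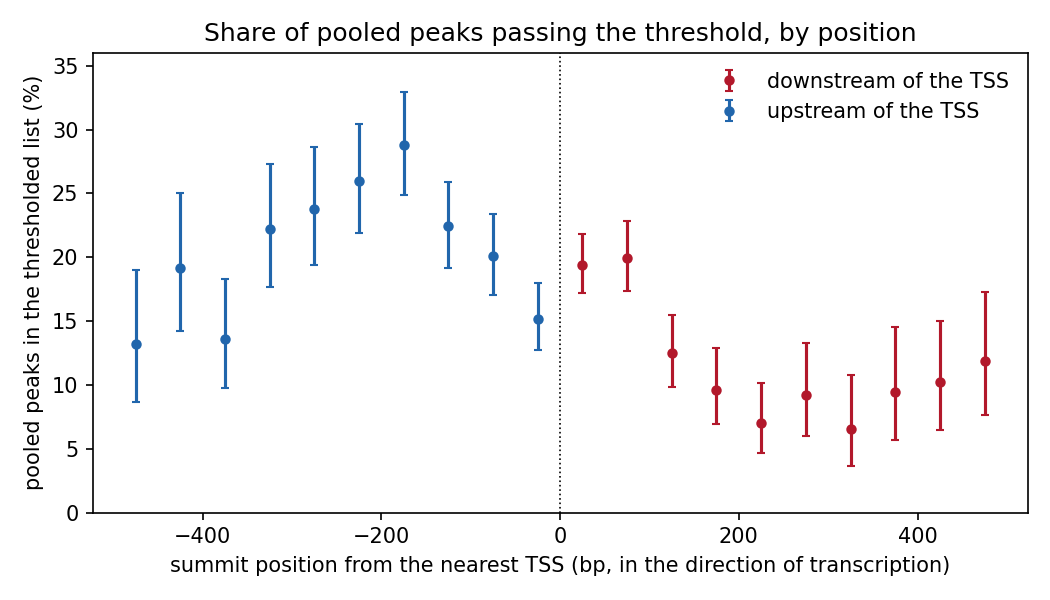
Share of pooled peaks that are in the thresholded list (y axis, percent, with exact 95% binomial intervals that cover counting error only) by summit position from the nearest TSS in steps of 50 bp (x axis), downstream in red and upstream in blue. The share stays near 20% over the first 100 bp past the start and is 7.05% at 200 to 249 bp. Upstream it is 15.2% at -50 to -1 bp and reaches 28.8% at -200 to -151 bp.

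The peaks that did pass were also weaker than those upstream, except close to the start. Of the 635 downstream peaks, 261 (41.1%) scored above 154.8, the median of all thresholded peaks, against 501 of 894 upstream peaks (56.0%, odds ratio 0.547, Fisher's exact test, two-sided, p = 1.07e-08). Medians were 142.8 and 165.9. Among the 100 strongest thresholded peaks, 9 lay downstream and 40 upstream. At most 100 bp from a TSS the shares were 40.1% downstream and 40.2% upstream, an odds ratio of 0.995 (exact p = 1). Over 100 bp they were 42.9% and 62.0% (odds ratio 0.460, exact p = 4.08e-07).

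Summits in coding sequence were rare among the thresholded peaks. Only 12 of 635 (1.89%) lay in coding sequence, against 512 of 3569 remaining downstream summits (14.3%, odds ratio 0.115, Fisher's exact test, two-sided, adjusted p = 4.14e-24). Of the 5 annotation features tested, 2 (40%) passed, the other being the 5' UTR, which held 468 thresholded summits (73.7%) and 58.9% of the remaining ones (odds ratio 1.95, adjusted exact p = 2.16e-12). Summits over 100 bp from the TSS did not pass for the 5' UTR (45.4% against 39.0%, adjusted exact p = 0.0985). Coding sequence stayed lower at most 100 bp from the TSS (1.01% against 4.27%, adjusted exact p = 0.0038) and over 100 bp (3.36% against 21.8%, adjusted exact p = 3.76e-14). Introns held 124 thresholded summits (19.5%) and 20.1% of the remaining ones (adjusted exact p = 0.788).

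**Figure D3:**
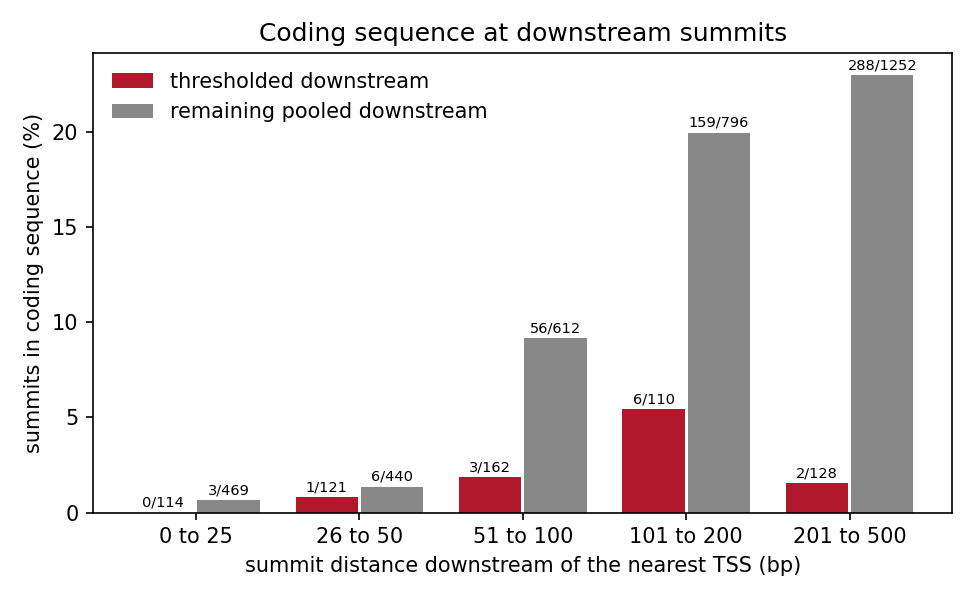
Percent of summits in coding sequence (y axis) by distance past the TSS (x axis, bp), for thresholded downstream peaks (red) and remaining pooled downstream peaks (grey), with the counts above each bar. At more than 200 bp, 2 of 128 thresholded summits and 288 of 1252 remaining ones lie in coding sequence.

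Within their transcripts, 517 summits (81.4%) lay in the first exon and 107 (16.9%) in the first intron. Intronic peaks had a median signalValue of 162.5 and lay a median of 226.5 bp past the start, and 5' UTR peaks had a median of 139 at 54 bp. At more than 200 bp, 71 of 128 summits (55.5%) were intronic and 33 (25.8%) in a 5' UTR. The coding exceptions included RpS23, a protein of the small ribosomal subunit, at 198.2 (45 bp past the TSS), eIF3h, a subunit of translation initiation factor 3, at 153.8, ATPsynbeta, the catalytic subunit of mitochondrial ATP synthase, at 149.2, and betaTub56D, a beta-tubulin, at 126.6. RpS23 was chosen after its value was seen, as the strongest of the 12. ATPsynbeta ranked 4647 in replicate 1 and 1168 in replicate 2, so it was weak in the first of these.

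Many of these starts belonged to divergent gene pairs. For 296 of the 635 (46.6%), a TSS on the opposite strand lay at most 1000 bp behind the start, against 1212 of 3569 remaining downstream peaks (34.0%), given as a description. Of the upstream peaks 55 of 894 (6.15%) had one, since summits between head-to-head starts are not among them. At starts with no such partner, the share passing the threshold was 12.1% downstream and 20.4% upstream (odds ratio 0.537, Fisher's exact test, two-sided, p = 6.84e-20). Pooled downstream peaks with such a partner were in the thresholded list in 17.9% of cases (296 of 1650) and those without in 12.1% (339 of 2798). Peaks with a partner had a mean GC content of 38.1 ± 9.54% (SD, n = 296) within 50 bp of the summit, and those without 41.5 ± 9.21% (SD, n = 339). For 163 (25.7%) another TSS of the same gene lay ahead within 500 bp, so that the summit was downstream of 1 start and upstream of the next. A second thresholded summit lay up to 1000 bp upstream of the TSS for 70 (11.02%).

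Downstream summits were poorer in G and C than weaker downstream peaks and richer than upstream ones. Within 50 bp of the summit, GC content averaged 39.9 ± 9.50% (SD, n = 635) at thresholded downstream peaks, 34.2 ± 10.5% (n = 894) at thresholded upstream peaks and 44.3 ± 9.29% (n = 3569) at remaining downstream peaks. At 72 bp past all 23584 annotated TSSs, the median distance of the peaks, it averaged 42.8%. Summits below 32.7% GC, the median of all thresholded peaks, made up 149 of 635 downstream peaks (23.5%), against 10.2% of the remaining downstream peaks (odds ratio 2.69, Fisher's exact test, two-sided, p = 4.56e-18). Against upstream peaks, of which 49.3% fell below that value, the odds ratio was 0.315 (exact p = 3.54e-25). At most 100 bp from a TSS, downstream and upstream summits had near-equal shares, 20.7% and 20.5% (odds ratio 1.01, exact p = 1), while over 100 bp they were 28.1% and 60.2% (odds ratio 0.260, exact p = 1.58e-17). The contrast with the remaining downstream peaks was of like size at most 100 bp from the TSS (20.7% against 8.94%, odds ratio 2.65) and over 100 bp (28.1% against 11.2%, odds ratio 3.11).

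GC content dipped at and just past the summit, and was as low again farther ahead of it. In steps of 20 bp along the direction of transcription, mean GC content of the thresholded downstream peaks was 38.2% at 20 to 39 bp past the summit, between 43.1% at -60 to -41 bp and 42.9% at 100 to 119 bp. It was 37.6% at -240 to -221 bp. At remaining downstream peaks the steps at 20 to 39 bp and at -60 to -41 bp had 43.3% and 44.9%. E(z), with 16.8% GC, and ph-p, with 19.8%, were among the poorest in G and C of the named peaks. Polycomb group genes lay at both ends, since ph-d, a second polyhomeotic gene, was among the richest with 54.5%. Others rich in G and C were snRNA:7SKa with 69.3% and chic, which encodes profilin, with 57.4%. RpS4, a small-subunit ribosomal protein gene, had 51.5%.

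**Figure D4:**
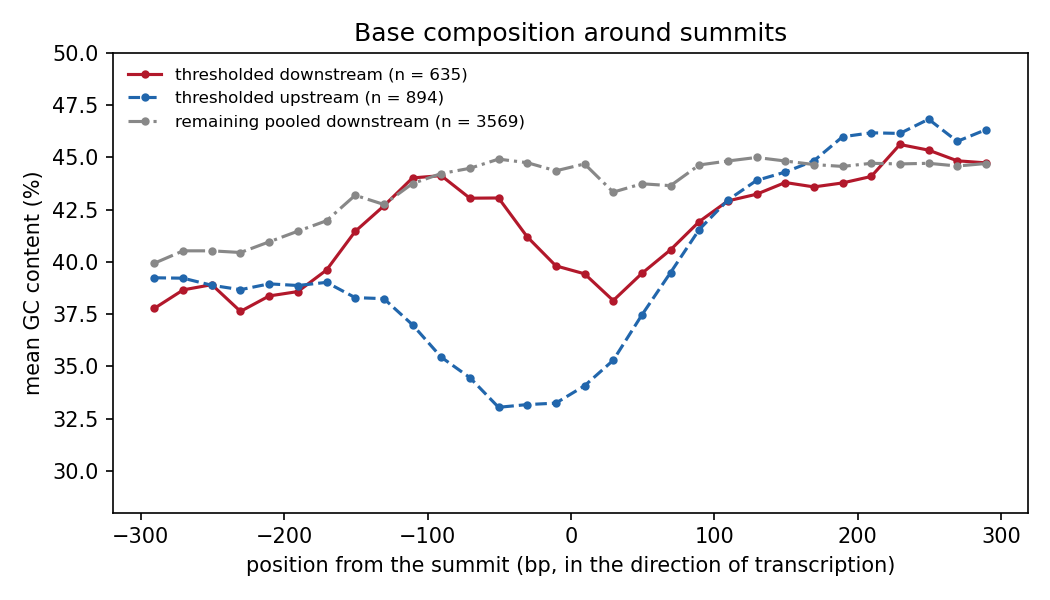
Mean GC content (y axis, percent) in steps of 20 bp around the summit (x axis, bp in the direction of transcription), for thresholded downstream peaks (red, n = 635), thresholded upstream peaks (blue, n = 894) and remaining pooled downstream peaks (grey, n = 3569). The red line dips to 38.2% just past the summit and is at 37.6% at -240 to -221 bp, the blue line to 33.0% ahead of it, and the grey line stays between 42.8% and 45.0% from -140 bp onwards.

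Short sequence words at the summits were counted on both strands within 50 bp, over 18 words. Of factor sites, those tested were the DNA replication-related element TATCGATA, the BEAF-32 word TCGATA (contained in that element), the GAGA word GAGAGA, the CA repeat CACACACA, the homeodomain core TAATTA, the Pleiohomeotic word GCCAT, the E-boxes CACGTG and CAGCTG, the CTCF word AGGNGGC, the Su(Hw) word TGCATA and the Zeste word (GAG between single pyrimidines, then G). Words of A and T were TTTAAAA and the run AAAAAAA. Of core promoter elements, those tested were the TATA word TATAAA, Motif 1, Motif 6, the initiator (TCAGT and a pyrimidine) and the TCT element (CTTT between pairs of pyrimidines). A match is the letters alone, and shows no bound factor. At 148 of the 635 peaks 0 of the 18 were found.

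Against the remaining downstream peaks, 4 of 18 words (22.2%) differed. TATAAA was found at 102 of 635 thresholded peaks (16.1%) and 9.08% of the remaining ones (odds ratio 1.92, Fisher's exact test, two-sided, adjusted p = 8.42e-06), and at 10.7% of windows 72 bp past all annotated TSSs. TTTAAAA was found at 8.66% and 4.34% (odds ratio 2.09, adjusted exact p = 0.000157), and at 5.85% of all TSS windows. The TCT element was found at 99 (15.6%) and 10.1% (odds ratio 1.65, adjusted exact p = 0.000459), and at 9.92% of all TSS windows. The Pleiohomeotic word GCCAT was rarer, at 10.6% and 15.8% (odds ratio 0.630, adjusted exact p = 0.00254), and at 16.5% of all TSS windows. Of starts with no head-to-head partner, 0 of 18 words were called, where the adjusted exact p of each of these 4 words was 0.0733 and odds ratios for the higher ones were 1.53 to 1.79. Without the cytosolic ribosomal protein genes the TCT element was not called (odds ratio 1.24, adjusted exact p = 0.304), nor with replicate 1 alone (odds ratio 1.38, adjusted exact p = 0.0714). The GCCAT difference was called in 10 of 16 alternative settings, and not with replicate 1 alone (odds ratio 0.924, adjusted exact p = 0.639). The DNA replication-related element was found at 15 thresholded peaks (2.36%) and 1.15% of the remaining ones, which did not pass (adjusted exact p = 0.0666), and at 0.365% of all TSS windows.

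The TATA word was on the gene's strand at 58 peaks and on the other at 55. Its position relative to the TSS is not compared, because the windows searched reach 50 bp either side of the summit and not a fixed stretch around the TSS. Motif 1, which is bound by M1BP, was on the gene's strand in 9 of the 10 peaks that held it. At the remaining downstream peaks it was so in 44 of 48.

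Against upstream peaks, 5 of 18 words (27.8%) differed. Higher downstream were the Zeste word (20.2% against 11.3%, odds ratio 1.98, Fisher's exact test, two-sided, adjusted p = 3.79e-05), the TCT element (15.6% against 10.2%, odds ratio 1.63, adjusted exact p = 0.00941) and the CA repeat (4.41% against 1.79%, odds ratio 2.53, adjusted exact p = 0.0109). Lower downstream were TATAAA (16.1% against 23.8%, odds ratio 0.612, adjusted exact p = 0.00118) and TTTAAAA (8.66% against 15.1%, odds ratio 0.533, adjusted exact p = 0.00118). The Zeste word was found at 20.1% of the remaining downstream peaks, close to its share here, and at 16.1% of all TSS windows. At most 100 bp from the TSS none of these 5 was called, and the odds ratios of TATAAA and TTTAAAA turned to 1.13 and 1.41. The TCT element was not called without the cytosolic ribosomal protein genes (odds ratio 1.35, adjusted exact p = 0.203) or with replicate 1 alone (odds ratio 1.18, adjusted exact p = 0.436), and TTTAAAA not with replicate 2 alone (odds ratio 0.677, adjusted exact p = 0.0607). The CA repeat was called in 9 of 15 alternative settings and rests on 28 downstream and 16 upstream peaks.

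**Figure D5:**
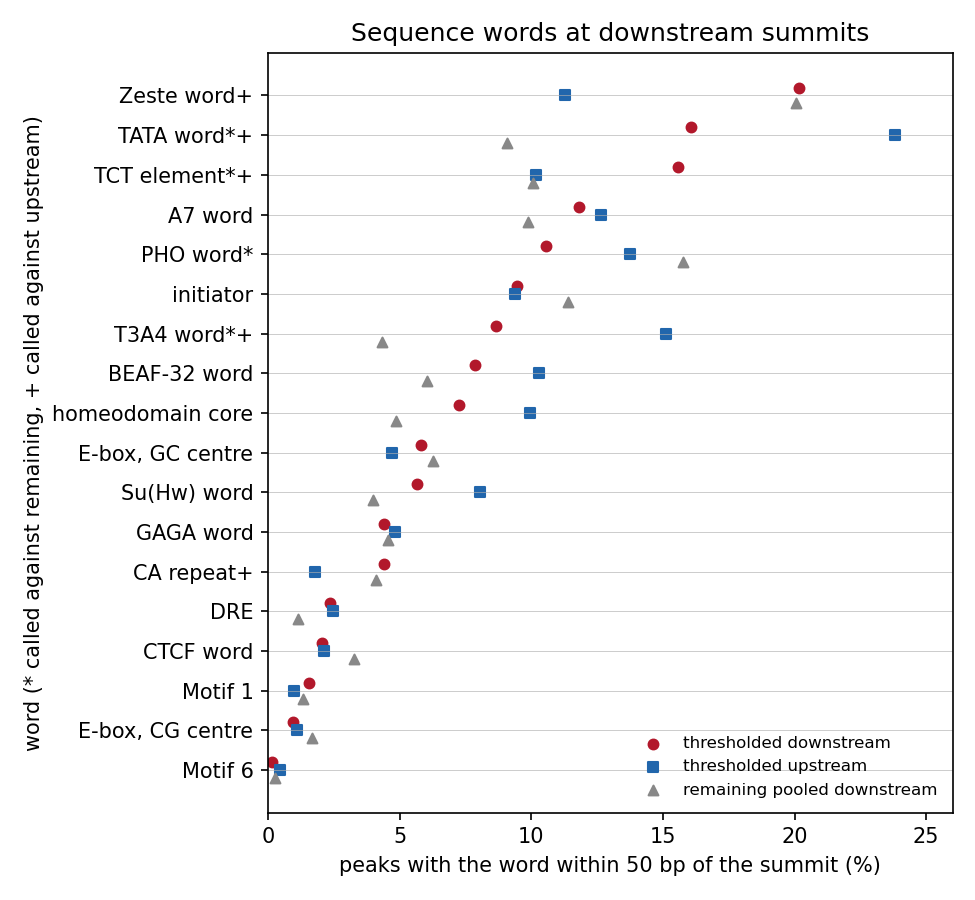
Percent of peaks with each of 18 words within 50 bp of the summit (x axis), for thresholded downstream peaks (red circles), thresholded upstream peaks (blue squares) and remaining pooled downstream peaks (grey triangles). A star marks the 4 words called against the remaining peaks and a plus the 5 called against upstream peaks. The TATA word stands at 16.1%, 23.8% and 9.08% in these sets.

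All 8192 words of 7 bases, each merged with its reverse complement, were tested in the same way. Against the remaining downstream peaks 12 (0.146%) were called (Fisher's exact test, two-sided, p adjusted over all 8192). All 12 were more frequent at the thresholded peaks and held at most 1 G or C. Those of smallest p were AAATAAG (6.14% against 2.27%), AAATTTA (8.35% against 3.89%), ATACATA (7.09% against 3.05%), ATAAAAA (11.2% against 5.97%) and ATAAATA (10.9% against 5.80%), with adjusted exact p of 0.0126 to 0.0129. Against upstream peaks 38 (0.464%) were called, of which 15 were more frequent downstream and 23 less. All 23 of the less frequent ones held at most 1 G or C, among them TATTTAA (5.83% against 13.8%), ATTAAAT (6.14% against 13.8%), ATATGAA (1.42% against 6.04%) and TTAAAAA (9.13% against 17.3%), with adjusted exact p of 0.00349 to 0.00872. Of the 15, 11 held the dinucleotide CG, among them CGTCGAA (2.52% against 0.112%, adjusted exact p = 0.012). These counts moved widely with the settings, from 0 to 68 against the remaining peaks and from 0 to 137 against upstream peaks. With replicate 1 alone they were 11 and 24, and with replicate 2 alone 4 and 1.

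Genes for cytosolic ribosomal proteins had the highest share of downstream peaks among the 29 gene lists. Of 87 such genes, 34 (39.1%) had a thresholded peak just past a start, while 632 of all 18164 annotated genes (3.48%) did. Upstream of a start 14 of the 87 (16.1%) had a thresholded peak, beside 4.70% of all genes. Between head-to-head starts 17 (19.5%) had one, beside 3.65%. The higher share was thus not particular to downstream peaks. Of the 34 peaks, 20 lay at genes of the large subunit, 13 at genes of the small subunit and 1 at Rack1, which binds the small subunit. They lay 0 to 89 bp past the TSS with a median of 32 bp, against 76 bp for the other peaks, and their median signalValue was 193 against 141.4. All 34 lay within 100 bp of the TSS. GC content averaged 40.9 ± 7.93% (SD, n = 34) against 39.8 ± 9.59% at the others.

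The strongest of them were at RpL30 (403.8 in the thresholded list, 214.9 in replicate 1 and 188.8 in replicate 2) and RpL11 (402.7, 227.7 and 161.3). RpS4 had 288.7, 175.4 and 122.9, and RpS3A 286.9, 139.9 and 129.7. All 4 were in 5' UTRs, from 3 to 56 bp past the start. With replicate 1 alone 36 of the genes had such a peak, and with replicate 2 alone 35. Of the 34 genes, 13 had no head-to-head partner.

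Within 50 bp of the summit, on either strand, the TCT element was found at 99 of all 635 peaks. It was found at 73 of the 601 peaks outside the ribosomal protein genes (12.2%). A stricter count asked that the element span the annotated TSS on the gene's strand. By that count it was found at 5 of the 34 ribosomal protein peaks (14.7%) and at 2 of the others (0.333%). Of these 5, 4 are shown by 25 bases centred on the TSS, with the element in capitals. They were chosen after values were seen.
RpS7, chr3R:30208930-30208954, minus strand: tggctcgactTCCTTTCCtgtcaaa
RpL8, chr3L:2587444-2587468, plus strand: atgtcttcCTCTTTTCttttctttt
RpL7A, chrX:6533244-6533268, minus strand: ggaactgccactTCCTTTCTttttc
RpS15Aa, chrX:13337626-13337650, minus strand: ttccttccgtttCCCTTTCTtttcc
Their signalValues were 233.9, 217.9, 151.2 and 142.8, with summits 44, 33, 29 and 38 bp past the start.

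Other lists of translation genes had lower shares than the cytosolic ribosomal proteins. For comparison, 3.48% of all annotated genes and 4.17% of protein-coding genes had a downstream peak. Of 53 initiation and elongation factors, 4 (7.55%) had a downstream peak. They were eEF1gamma (289.4), eEF2, the translocase of the elongating ribosome (203.2), eIF3c (179.1) and eIF3h. Of 73 mitochondrial ribosomal proteins 2 had one, mRpL23 and mRpS11 (122.6), and of 33 aminoacyl-tRNA synthetases 1 did, SerRS (286.4). Of 89 subunits of oxidative phosphorylation 4 (4.49%) had one, led by ND-24 of complex I (201.9), with ATPsynbeta, ATPsynC and ND-ASHI. The ATPsynC peak ranked 6207 in replicate 1 and 1048 in replicate 2, so it was weak in replicate 1. The 33 subunits of the vacuolar proton pump included 1, Vha13 (127.6). The 48 proteasome subunits held 0, and of the 13 glycolysis enzymes 0 had a downstream peak and 6 an upstream one.

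The lists of chromatin regulators were short, and their shares were above those of all annotated genes (3.48%) and protein-coding genes (4.17%). Pooled downstream peaks, thresholded or not, were also frequent there. They lay at 10 of 19 Polycomb group, 13 of 18 trithorax group and 8 of 16 insulator genes, beside 3785 of all 18164 genes. Of 19 Polycomb group genes, 4 (21.1%) had a thresholded downstream peak. Besides ph-p and E(z), these were ph-d, the distal copy of polyhomeotic (165.7), and Psc, another subunit of Polycomb repressive complex 1 (108.0). The Psc peak ranked 13352 in replicate 1 and 2057 in replicate 2, so it rested mainly on replicate 2. ph-p and ph-d are closely similar neighbours, and how the authors treated reads that map to both is not given in the sources used here. Of 18 trithorax group genes 3 (16.7%) had one. They were Trl, which encodes GAGA factor (208.6 at 252 bp), kis, a chromodomain remodeller (139.8), and trx, a histone H3 lysine 4 methyltransferase (108.6). Of 16 insulator and boundary genes 4 (25%) had one, Chro, Dref (371.6), mod(mdg4) (129.1) and, counted with them, CG12299 itself.

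The peak at CG12299, the gene of the tagged protein, lay 56 bp past its start (chr2L:10737209-10737592) in the 5' UTR. Its signalValue was 129.5 in the thresholded list, where it ranked 2560 of 3672. It was 52.5 in replicate 1 (rank 4933) and 73.4 in replicate 2 (rank 1843). The summit lay 56 and 49 bp past the start in the replicates. It is thus a weak member that replicate 1 alone would not place among its 3672 strongest.

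Among developmental regulators, 5 of 23 ecdysone response genes (21.7%) had a downstream peak, beside 4.17% of protein-coding genes. They included Eip75B, a nuclear receptor induced by the hormone (347.4, with 193.9 in replicate 1 and 151.9 in replicate 2), Hr78, another nuclear receptor (205.4), Eip63F-1, an ecdysone-induced calcium-binding protein (202.9), and Eip63E (134.7). Of 42 signalling genes 7 (16.7%) had one, among them S (162.3), arr, a Wingless co-receptor (140.7), tkv, a Dpp receptor (124.1), and aop, an ETS-domain repressor (117.2). These were weak peaks, with a median of 117.2. Of 24 segmentation and Hox genes 1 had one, hb, a gap gene (108.3). Of 24 neural identity genes 1 did, brat (148.4), and of 19 heart and muscle genes 0. The germline list gave 1 of 20, bgcn (158.1).

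Of 23 actin and tubulin genes and their regulators, 5 (21.7%) had a downstream peak, beside 4.17% of protein-coding genes. The strongest were sqh, the regulatory light chain of non-muscle myosin (267.5), chic (185.0), cpb, the beta subunit of actin capping protein (160.8), and betaTub56D. Of 31 Rab GTPases 5 (16.1%) had one, with Rab8 (135.8), Rab11 (125.1), Rab10 (117.2) and Rab21 (115.6) the strongest. Of 50 cell cycle and replication genes 4 did, dpa, a subunit of the MCM helicase (218.6), CycT (137.2), CycA (130.5) and tws (108.2). Of 70 Mediator, TAF and RNA polymerase subunits 3 did, Polr1D (160.6), Taf3 (132.6) and MED6 (129.4). The MED6 peak ranked 8322 in replicate 1 and 1607 in replicate 2, so it rested mainly on replicate 2. Other weak named peaks also ranked unevenly in replicates 1 and 2, such as Vha13 (1824 and 5188) and aop (5116 and 2092). Splicing factors gave 2 of 39, B52 (157.6) and tra2 (114.7), chaperones 2 of 39, Hsp110 (136.5) and Hsc70-4 (114.0), nuclear pore proteins 1 of 21, Nup98-96 (254.1), and histone genes 1 of 126, His3.3B (162.1).

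Genes for short RNAs were nearly free of such peaks. Of 295 tRNA genes 1 had a downstream thresholded peak (0.339%), although 55 had a pooled one. Small nuclear and nucleolar RNA genes gave 1 of 306, snRNA:7SKa (195.4), and microRNA genes 0 of 260. Long non-coding RNA genes gave 45 of 2447 (1.84%), with a median signalValue of 183.3 against 141.7 for protein-coding genes, of which 581 of 13945 (4.17%) had a peak. Gene lists were counted and not tested, and list sizes differ. Several list shares lie near that of protein-coding genes. Lists with higher shares also held many genes with a pooled downstream peak. These were 43 of 87 cytosolic ribosomal protein, 11 of 23 ecdysone response and 10 of 23 actin and tubulin genes. Of signalling genes 23 of 42 had a pooled one, and of Rab genes 12 of 31, beside 3317 of 13945 protein-coding genes.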

How the data were processed

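The authors deposited 4 peak lists with the signalValue of each peak, a score whose scale is not stated, and the summit's offset from the peak start. Per the labels the build was dm6. Per the deposited manifests 1 list was called on each replicate, 1 on both together, and the fourth, thresholded, keeps those that were reproducible by the authors' criterion. The aligner and caller are not given in the sources used. How narrowly the caller splits peaks and places summits bears on every distance here. No counts were given, so precision from depth is unknown, and intervals on shares cover counting error only.

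Summits were set against the Ensembl release 115 annotation without transposable elements (23584 TSSs on 6 arms). The comparison sets were thresholded upstream peaks outside head-to-head gaps, and pooled downstream peaks overlapping no thresholded peak (minimum overlap 1 bp). In the share that passed the threshold, pooled peaks that overlap a thresholded peak at another summit count as not passing. At each summit the annotation was read in the order 5' UTR, coding sequence, intron, non-coding exon, other. Words and 7-mers were searched within 50 bp on both strands. Fisher's exact test, two-sided, was used over peaks, which are not biological replicates, with Benjamini-Hochberg adjustment within each family (18 words, 8192 7-mers, 5 features) and a threshold of 0.05. The word and 7-mer tests, and not the other steps, were tried on simulated sets made from windows of remaining downstream peaks.

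Members, gene lists and words were chosen with earlier results of these data known. Named genes are those of the 20 strongest peaks, with a second gene within 50 bp, up to 4 per list, the 5 weakest, the strongest remaining and those nearest the distance limit. Genes whose summit sequences are shown are also named (the 6 strongest outside arm 2R whose 61-base window holds no annotated UTR, and 4 others). Of 7-mers, the 5 of smallest p are named. Alternatives were other distance limits (300 and 1000 bp), TSS sets, gaps, peak middles, each replicate alone, the stronger 50% of either list and windows of 25 and 100 bp; 4 more, on distance, divergent partners and ribosomal protein genes, were added after seeing the data. Analyses used Python 3.11.15, numpy 2.4.6, pandas 2.3.3, scipy 1.17.1 and matplotlib 3.10.9.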

Additional observations from a re-analysis of the deposited data

How the results depend on the processing

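Of 71 alternative values for the 5 tested contrasts, 68 kept their direction and side of the threshold, and of 62 for the 4 counts of words or 7-mers called, 34 stayed within 1.5 times. The lower coding share and the AT-rich contrast with remaining downstream peaks did so in every alternative run, with odds ratios of 0.0461 to 0.228 and 1.88 to 4.78. The head-to-head gap of 500 bp leaves both downstream sets unchanged, so these 2 contrasts could not move in that setting. Nor could the counts of 4 words and 12 7-mers called against the remaining peaks, which are among the 34. At most 100 bp from the TSS the upstream contrasts ended: the odds ratio was 1.15 for the share passing the threshold, 1.01 for AT-rich summits and 0.995 for signal, and 1.13 for TATAAA and 1.41 for TTTAAAA, with 1 word called. Leaving out 1 replicate gave 2 to 5 words and 4 to 11 7-mers against the remaining peaks, and 1 to 24 7-mers against upstream peaks, with 4 to 5 words there.

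Other counts that moved were, against the remaining downstream peaks, 7-mers at 0 within 300 bp, 68 within 1000 bp, 19 with the most 5' TSS, 29 in the stronger 50% of thresholded peaks, 0 against the stronger 50% of the remaining peaks, 1 and 29 in windows of 25 and 100 bp, 0 at most 100 bp from the TSS, 2 over 100 bp and 2 without a partner. Words there were 7 within 1000 bp, with the most 5' TSS and in windows of 100 bp, 2 over 100 bp and 0 without a partner. Against upstream peaks, 7-mers were 21 within 300 bp, 0 within 1000 bp, 0 in the stronger 50%, 0 and 137 in windows of 25 and 100 bp, 0 at most 100 bp from the TSS and 13 over it, and words were 1 in the stronger 50%. Fewer peaks enter several of these settings; otherwise the cause was not tested. As reported, 531 7-mers against the remaining peaks and 683 against upstream peaks had an unadjusted exact p under 0.05.

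No paired analysis was possible because the design has 1 group. With no read counts, the depth behind any peak is unknown, and with 2 replicates no spread per peak was estimated.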

Other observations

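At 13 genes more than 1 downstream peak passed the threshold, among them Sxl, the master gene of sex determination, Diap1, an inhibitor of apoptosis, ena, a regulator of actin filaments, Gug, a co-repressor, tmod, a cap of actin filament ends, and ATPsynC, a subunit of the mitochondrial ATP synthase. The 2 peaks of ATPsynC lay 0 and 211 bp past annotated starts, with signalValues of 134.2 and 110.6. By chromosome arm, downstream peaks made up from 15.2% of the thresholded peaks on 2L (107 of 704) to 18.6% on 3L (141 of 760) among the large arms, and 7 of 26 on chromosome 4. These genes were named after their values were seen.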
